A study of Homo sapiens with 8 samples.

Results

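The voltage-gated and potassium ion channel genes were examined in the transcriptome of SH-SY5Y cells, a human neuroblastoma line. Members were all genes whose symbol in the deposited table began with one of the family names SCN, KCN, CACNA1, CACNA2D, CACNB, CACNG or HCN in the form given to a subunit gene, whatever their expression. This gave 139 of the 47591 genes of the table, of which 14 were sodium, 26 calcium, 95 potassium and 4 HCN channel genes. The purpose of the experiment was to find transcripts that change when PRPF40B, a splicing factor gene, is silenced. Polyadenylated RNA was sequenced in 8 libraries: 3 came from the G2 line, in which CRISPR/Cas9 was directed at PRPF40B, 3 from the SCR line, which received a scrambled guide RNA, and 2 from unmodified WT cells. Edited colonies were grown by limiting dilution after puromycin selection, so G2 is a clonal line from 1 guide, and no second edited line was sequenced. The study describes SCR and G2 as cultured with puromycin and does not list WT there, so effects of the edit and of the clone cannot be told apart, nor those of culture in the comparisons with WT. The labels call the libraries biological replicates, without saying that they came from separate cultures, so the p-values below measure only the spread between these libraries.

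Voltage-gated sodium and calcium channels are built around a single large pore-forming alpha subunit, while voltage-gated potassium channels are assembled from several smaller ones. Beta, alpha2delta and gamma subunits are auxiliary proteins that alter the trafficking or gating of the pore. Sodium channels drive the upstroke of the action potential, potassium channels end it and set the resting potential, and calcium channels link depolarization to secretion and signalling. SH-SY5Y cells derive from the sympathoadrenal lineage, whose mature cells are excitable and release catecholamines on calcium entry.

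Values are counts that the authors normalized for library size with DESeq2, with no scaling to gene length. A difference is on the scale of log2(normalized count + 1), with its standard error (SE) and an adjusted p from limma over the 18947 genes whose mean was at least 10. Calls required a change of 1.5-fold or more together with a p, before adjustment, of 0.05 or less. These are the thresholds that the methods of the study describe. PRPF40B itself had 840.2, 841 and 918 normalized counts in G2, 1686, 1672 and 1669 in SCR, and 1972 and 1668 in WT. Its RNA was lower in G2 than in SCR by a log2 difference of -0.95, and part of it remained.

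Of the 139 members, 90 passed the filter on low values: 12 sodium, 18 calcium, 57 potassium and 3 HCN genes. Another 18 were listed at 0 in every library, among them CACNA1A and CACNA1H, the pores of the P/Q-type and of 1 T-type calcium channel. In total 35 members had no library above 9 recovered counts and were taken as at the floor in all lines. These 9 counts are about 3 fragments if each fragment gave 3 counts, which was assumed. A member that passed the filter through its level in 1 line had to differ, so the counts below describe the 90 genes and not all 139.

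The upstream sequences of 5 members are shown because these genes lie next to each other or changed in opposite directions. They cover SCN9A and SCN7A, neighbouring sodium channel genes that were both higher in G2, the alpha2delta genes CACNA2D1 (higher) and CACNA2D2 (lower), and the N-type pore CACNA1B (lower). The sequences are from RefSeq on GRCh38.p14, the build of the deposited table being hg38, and read 5′ to 3′ on the strand of the gene, ending at the transcription start. The windows held 250 bases, of which the last 43 for SCN9A and the last 6 for CACNA2D2 are not shown, because the table's own gene models begin further upstream. Capitals mark the GC box GGGCGG or its reverse complement CCGCCC, and the E-box CACGTG, which reads alike on both strands, and matches that overlap are counted separately. The intervals shown were chr2:166375988-166376194, chr2:166494250-166494499, chr7:82443957-82444206 and chr3:50504251-50504494 on the minus strand, and chr9:137877532-137877781 on the plus strand.
SCN9A: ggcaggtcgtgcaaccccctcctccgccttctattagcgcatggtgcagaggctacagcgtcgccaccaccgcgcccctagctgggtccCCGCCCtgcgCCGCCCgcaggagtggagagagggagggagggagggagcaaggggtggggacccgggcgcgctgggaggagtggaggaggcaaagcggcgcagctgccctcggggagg
SCN7A: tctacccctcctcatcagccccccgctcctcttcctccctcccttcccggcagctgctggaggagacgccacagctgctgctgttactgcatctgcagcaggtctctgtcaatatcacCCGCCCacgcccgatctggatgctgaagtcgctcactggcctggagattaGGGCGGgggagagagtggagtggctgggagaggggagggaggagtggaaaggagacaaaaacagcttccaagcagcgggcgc
CACNA2D1: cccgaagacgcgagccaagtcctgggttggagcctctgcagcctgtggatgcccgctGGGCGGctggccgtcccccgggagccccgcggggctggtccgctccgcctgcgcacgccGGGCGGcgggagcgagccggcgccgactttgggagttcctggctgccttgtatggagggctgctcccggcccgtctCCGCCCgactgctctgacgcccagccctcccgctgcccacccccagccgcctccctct
CACNA2D2: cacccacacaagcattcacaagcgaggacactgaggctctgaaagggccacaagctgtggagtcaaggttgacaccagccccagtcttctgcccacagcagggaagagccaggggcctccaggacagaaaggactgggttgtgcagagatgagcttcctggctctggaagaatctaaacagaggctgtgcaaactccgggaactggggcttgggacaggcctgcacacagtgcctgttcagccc
CACNA1B: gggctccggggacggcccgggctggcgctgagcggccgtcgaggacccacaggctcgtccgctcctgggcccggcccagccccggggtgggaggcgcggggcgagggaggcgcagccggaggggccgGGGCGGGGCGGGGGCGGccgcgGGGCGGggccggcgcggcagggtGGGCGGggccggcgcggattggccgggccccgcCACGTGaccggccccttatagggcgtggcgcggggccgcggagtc

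In these windows SCN9A had 2 GC boxes and 22 CpG dinucleotides, and SCN7A had 2 GC boxes and 10 CpG dinucleotides. CACNA2D1 had 3 GC boxes and 27 CpG dinucleotides, whereas CACNA2D2 had 0 GC boxes and 2 CpG dinucleotides. SCN7A and CACNA2D2 each have 2 RefSeq start sites, of which the window of only 1 is shown. CACNA1B, which was lower in G2 like CACNA2D2, had 5 GC boxes, 39 CpG dinucleotides and 1 E-box, so a GC box was present both in members that rose and in a member that fell. Among the 35116 RefSeq promoter windows of the same length, 42.6% held a GC box and 6.34% held CACGTG, with a median of 11 CpG dinucleotides. The 100 members with a promoter entry had 152 windows, and 50.7% of these held a GC box. A match of letters describes the window and is not evidence of binding.

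Compared with SCR, 17 members were higher and 38 were lower in G2, so that 55 of 90 (61.1%) were called, against 26.9% of all tested genes. Across all genes more were higher (15.1%) than lower (11.8%), while among the members most called genes were lower. The median difference of the members was -0.50, beside -0.01 for all genes, and their median absolute difference was 0.93, beside 0.35. Requiring an adjusted p of at most 0.05 left 15 higher and 36 lower members, against 25.0% of all genes called (14.3% higher and 10.7% lower). When libraries were scaled to the same total, G2/SCR had 17 higher and 42 lower members. Of all genes called there, 47.5% were then higher, in place of 56.2%, so the direction across all genes depended on the scaling. Compared with WT, 23 members were higher and 27 were lower in G2 (55.6%), against 29.9% of all genes, with 17.7% higher and 12.2% lower. With every library scaled to the same total the split was 28 higher and 26 lower, and that of all genes moved from 59.3% to 75.7% higher among those called. The median difference of the members was -0.18 in G2/WT, beside 0.00 for all genes. With the adjusted p, 22 were higher and 26 lower in G2/WT, where 28.2% of all genes were called (16.9% higher and 11.3% lower).

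Between the lines without the edit, 21 members were higher and 7 lower in SCR than in WT (31.1%), against 16.3% of all genes, with 10.7% higher and 5.63% lower. With the adjusted p, 18 were higher and 4 lower, against 13.8% of all genes (8.95% higher and 4.83% lower). When every library was scaled to the same total, this split became 33 higher and 3 lower, and that of all genes moved from 65.6% to 90.6% higher among those called. The 3 comparisons share libraries, so their counts are not independent of each other. Without any model, the G2 values did not overlap those of the 5 control libraries in 55 of the 90 members (61.1%), with 22 above and 33 below. The same held for 42.5% of all tested genes, 22.8% above and 19.7% below. Pores and auxiliary genes were called at similar shares in G2/SCR, with 38 of 64 pore-forming genes (59.4%) and 17 of 26 auxiliary genes (65.4%).

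**Figure D1:**
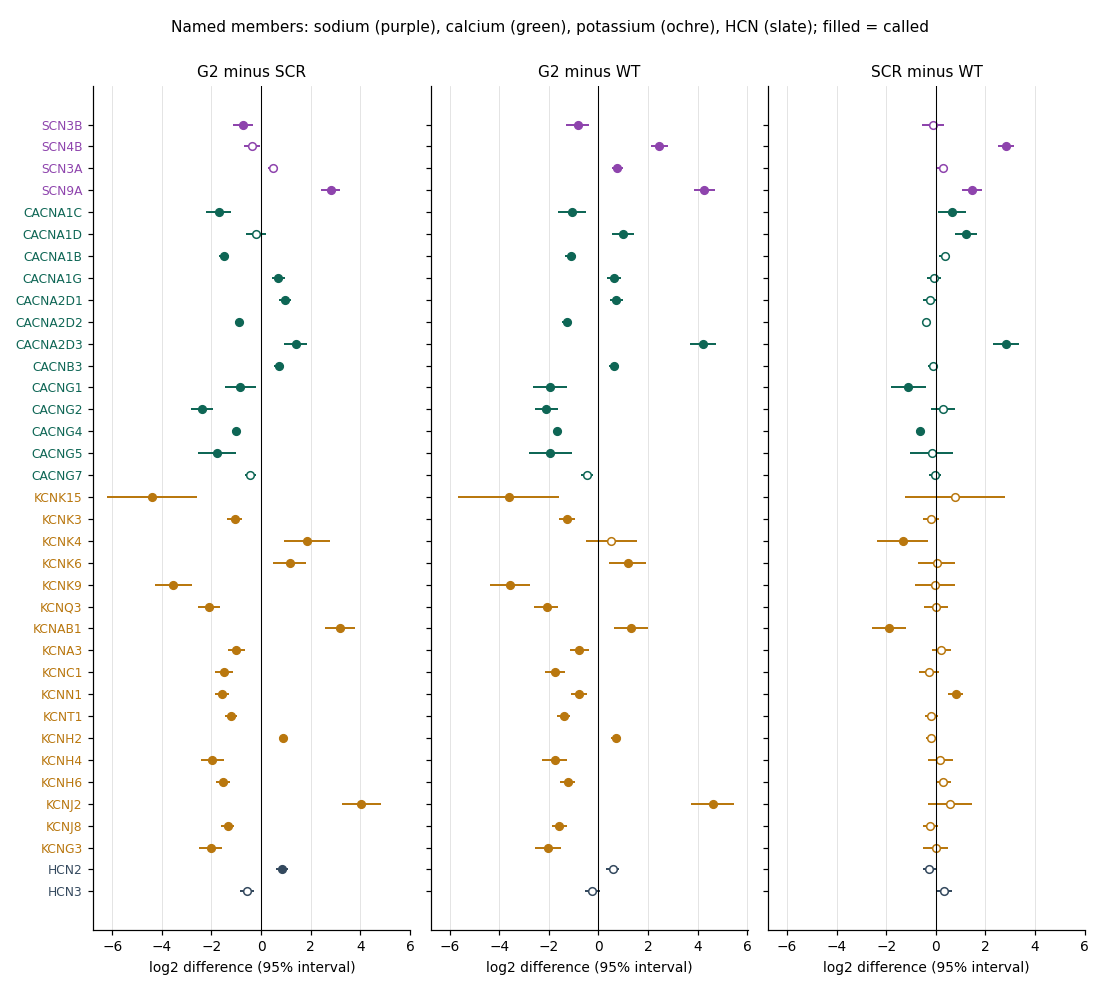
Log2 differences (points) with 95% intervals (bars) for 36 of the members named by rule, in G2 minus SCR, G2 minus WT and SCR minus WT; filled points were called. KCNJ2 (4.04), KCNAB1 (3.19) and SCN9A (2.81) lie farthest to the right in G2 minus SCR, and KCNK15 (-4.41) and KCNK9 (-3.53) farthest to the left.

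Markers of cell state moved with the same groups of libraries. Of the 10 adrenergic markers, which identify SH-SY5Y cells, 8 were called lower in G2 than in SCR and 8 lower than in WT. None was called higher, but GATA3 lay above all control libraries in G2, by 0.37 against SCR and 0.28 against WT. TH, called lower in both comparisons, was near the floor. It had 5.65, 0 and 0 normalized counts in G2, 26.5, 5.63 and 9.82 in SCR, and 19.9 and 13.9 in WT. The share of all tested genes called lower was 11.8% against SCR and 12.2% against WT. The summed normalized count of the 10 markers was 107384 to 116773 in G2, 209396 to 223778 in SCR and 238241 to 252446 in WT. Of the 11 mesenchymal markers 9 were tested, and 8 were called higher in G2 against either control line. For all tested genes the share called higher was 15.1% against SCR and 17.7% against WT. The remaining tested marker, TWIST1, was lower in G2 by 0.39 than in SCR and by 0.34 than in WT, and was not called. It averaged 21105 normalized counts in G2, 27740 in SCR and 26687 in WT. The sum of the 11 markers, most of it VIM, was 281086 to 285934 in G2, 114473 to 121845 in SCR and 81103 to 93333 in WT. FN1 and TWIST2 were listed at 0 in every G2 library. Of the 6 Schwann and glial markers SOX10 was listed at 0 in every library, and the sum of the 6 was 145 to 229.6 in G2, 374 to 583 in SCR and 427 to 439.8 in WT. In RNA from whole cultures, fewer cells of a type and less RNA per cell cannot be told apart. The part that these differences in state had in the channel results was not tested.

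Among the sodium channel genes, 3 were higher and 3 lower in G2 than in SCR, 5 were higher and 1 lower in G2 than in WT, and 4 were higher and 1 lower in SCR than in WT. For this and later groups, the shares of all tested genes called were 26.9% in G2/SCR, 29.9% in G2/WT and 16.3% in SCR/WT. The highest alpha subunit RNA differed between lines: SCN9A led in G2 and SCN3A in both control lines. SCN9A encodes a channel of peripheral sensory and sympathetic neurons that amplifies small depolarizations. It had 4156, 4330 and 4081 normalized counts in G2, 619, 619 and 555 in SCR, and 163 and 286 in WT. The 3 lines did not overlap, in the order G2, SCR, WT. SCN9A was higher in G2 than in SCR by 2.81 (SE 0.16, adjusted p = 2.5e-08) and than in WT by 4.27 (SE 0.17, adjusted p = 1.9e-09), and higher in SCR than in WT by 1.47 (SE 0.17, adjusted p = 6.7e-05). Exons of SCN9A overlap the antisense gene SCN1A-AS1, whose mean was only 0.31 normalized counts.

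SCN3A, an alpha subunit best known from the embryonic and neonatal brain, had 3166, 3300 and 3220 normalized counts in G2, 2331, 2262 and 2321 in SCR, and 1712 and 2118 in WT. All G2 libraries were above the controls, but only the difference from WT (0.76) passed the fold threshold, that from SCR being 0.49.

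To compare levels between genes, normalized counts were divided by the length of the merged exons in kilobases. On this scale SCN9A made up 45.1, 45.7 and 44.6% of the summed alpha subunit level in G2, 12.2, 12.7 and 11% in SCR, and 4.98 and 6.62% in WT. SCN3A made up 41.4 to 42.4% in G2, 55.3 to 55.8% in SCR, and 59.1 and 63.2% in WT. The summed alpha level was 666 ± 12.4 (SD, n = 3) normalized counts per kilobase in G2, 359 ± 7.19 (n = 3) in SCR and 272 ± 53.3 (n = 2) in WT. With the length of the MANE transcript instead, SCN9A was at 46.2, 12.0 and 5.91% on average in G2, SCR and WT, and SCN3A at 38.2, 49.7 and 55.2%.

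SCN9A lies with SCN3A, SCN2A, SCN1A and SCN7A in a cluster on chromosome 2, from 165087526 to 166494249 on hg38. Of these 5 genes 2 were called higher against SCR, 3 were called higher against WT, and 0 were called lower. Among all tested genes 15.1% were called higher against SCR and 17.7% against WT. SCN7A, which encodes a sodium-sensing relative of the voltage-gated channels and was singled out after its values were seen, had 81.9, 72.3 and 64.5 normalized counts in G2, 7.14, 21.6 and 12.1 in SCR, and 6.21 and 5.96 in WT. It was higher in G2 than in SCR by 2.46 (SE 0.42, adjusted p = 4.5e-04). WT was at the floor, so its G2 level was at least 7.25-fold higher than a floor of 9 recovered counts in each WT library. SCN2A did not pass the fold threshold in any comparison, with -0.42 in G2/SCR, -0.01 in G2/WT and 0.41 in SCR/WT, the last of which became 0.69 when libraries were scaled to the same total. SCN1A was called in SCR/WT, where it was higher by 2.54, but without WT replicate 1 that difference was 0.65 and was not called. Its G2/WT difference of 1.77 was not called, but passed without WT replicate 2 (3.66) and with libraries scaled to the same total (1.90).

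The 4 beta subunits, which carry an extracellular immunoglobulin domain and associate with the alpha subunits, had 1 higher and 2 lower genes in G2/SCR, and 2 higher and 1 lower against WT. SCN3B had 151, 154 and 139 normalized counts in G2, 259, 237 and 233 in SCR, and 207 and 339.6 in WT. It was lower in G2 by 0.71 than in SCR and by 0.84 than in WT, the latter falling to -0.49 and losing its call without WT replicate 2. SCN4B separated WT from the other lines: it had 405, 361 and 446 in G2, 547, 546 and 466 in SCR, and only 68.3 and 76.4 in WT. It was higher than in WT by 2.46 in G2 and by 2.83 in SCR (adjusted p = 6.9e-08), and the G2/SCR difference of -0.36 was not called.

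**Figure D2:**
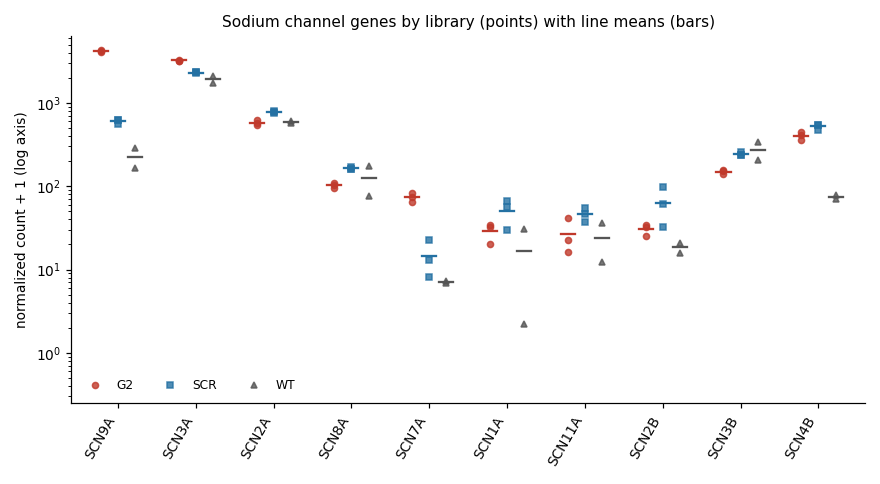
Normalized counts plus 1 on a log axis for 10 of the 12 tested sodium channel genes, with points for the 3 G2, 3 SCR and 2 WT libraries and bars for line means. SCN9A and SCN7A stand above all control libraries in G2, while SCN4B is low in WT only.

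Calcium channel genes had 5 higher and 9 lower members in G2/SCR, 6 higher and 7 lower in G2/WT, and 4 higher and 2 lower in SCR/WT, out of 18 tested. Their median differences were -0.59 in G2/SCR, -0.22 in G2/WT and 0.04 in SCR/WT. CACNA1B, the pore of the N-type channel that opens in nerve terminals to trigger transmitter release, was lower in G2. It had 887, 929 and 853 normalized counts in G2, 2558, 2323 and 2609 in SCR, and 1828 and 2029 in WT. All G2 libraries were below all controls, and the differences were -1.49 (SE 0.07, adjusted p = 8.6e-09) from SCR and -1.11 (SE 0.08, adjusted p = 3.5e-07) from WT. CACNA1G, a T-type pore that opens at low voltage, was higher, with 712, 746 and 774 in G2, 529, 440.1 and 419 in SCR, and 510.3 and 458 in WT. Each G2 library was above the controls, but the differences of 0.69 and 0.62 lay near the fold threshold, and without WT replicate 2 the latter became 0.54 and was not called. Per kilobase of exon, CACNA1B made up 50.1% of the calcium pores in G2, 78.2% in SCR and 76.9% in WT, and CACNA1G made up 41.2, 14.3 and 19%.

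The L-type pores, which carry the sustained calcium current of muscle and neuroendocrine cells, showed separate patterns. CACNA1C had 34.8, 29.6 and 41.9 normalized counts in G2, 109, 104 and 139.8 in SCR, and 75.7 and 72.5 in WT. It was lower in G2 by 1.71 than in SCR and by 1.06 than in WT. Its SCR/WT difference of 0.65 was called, but not without SCR replicate 3 (0.52) or WT replicate 2 (0.62). CACNA1D had 244, 249 and 286 in G2, 302, 259 and 344 in SCR, and 106 and 157 in WT, so that WT stood below both other lines, by 1.00 and 1.21. Part of its exons overlap CHDH on the opposite strand, which had 296, 172 and 221 on average in G2, SCR and WT, and the strand setting of the counting was not given. CACNA1E, the R-type pore, was singled out after its values were seen, because it was above the floor in SCR only. It had 77.6, 91.0 and 73.3 normalized counts in SCR, but 0.941, 0 and 4.30 in G2 and 0 and 2.98 in WT. Against the floors of the other lines, SCR was at least 8.64-fold higher than G2 and at least 8.02-fold higher than WT.

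The alpha2delta subunits, extracellular proteins that bring the pore to the membrane, changed their balance. CACNA2D2 had 6379, 6525 and 6718 normalized counts in G2, 12346, 11318 and 12279 in SCR, and 15066 and 16471 in WT. CACNA2D1, which together with CACNA2D2 binds the drug gabapentin, had 7257, 6770 and 7020 in G2, 3758, 3590 and 3430 in SCR, and 3650 and 4931 in WT. In both genes the G2 libraries lay outside all controls, in opposite directions. CACNA2D2 was lower in G2 by 0.87 than in SCR (adjusted p = 1.0e-07) and by 1.27 than in WT (adjusted p = 1.1e-08). CACNA2D1 was higher by 0.97 (adjusted p = 3.2e-06) and 0.72 (adjusted p = 9.1e-05), the latter being 0.51 and not called without WT replicate 1. Within a library, the CACNA2D2 to CACNA2D1 ratio of normalized counts was 0.879 to 0.964 in G2, 3.15 to 3.58 in SCR, and 4.13 and 3.34 in WT. This ratio does not depend on the scaling of the library, but it takes no account of gene length. Per kilobase of exon CACNA2D2 kept the larger share of the alpha2delta level in G2, at 55.3% against 42.1% for CACNA2D1. With the length of the MANE transcript these shares were 53.7% and 43.5%.

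CACNA2D3, another alpha2delta gene, differed between all 3 lines, with 9.93 and 12.9 normalized counts in WT, 71.4, 97.6 and 90.7 in SCR, and 225, 217 and 237 in G2. It was higher in G2 than in SCR by 1.39, in G2 than in WT by 4.20, and in SCR than in WT by 2.82 (adjusted p = 3.3e-06). It remained a small share of the alpha2delta level per kilobase of exon, at 2.64% in G2, 0.819% in SCR and 0.0834% in WT. CACNB3, a cytoplasmic beta subunit that binds the pore and was the beta gene with the largest share per kilobase, had 2517, 2739 and 2735 in G2, 1725, 1561 and 1561 in SCR, and 1769 and 1691 in WT. Its differences were 0.72 from SCR and 0.62 from WT, and it made up 86.3% of the beta subunit level in G2, 71.6% in SCR and 76.9% in WT. Of the other beta genes, CACNB1 was called lower in G2/SCR (-0.71) and CACNB2 higher in both G2 comparisons (1.36 against SCR, and a smaller difference against WT that was not called, at 0.92, without WT replicate 1). CACNB4 was called in none of the 3 comparisons, except in G2/SCR without G2 replicate 1 (-0.62) and in SCR/WT without WT replicate 2 (0.86) or with libraries scaled to the same total (0.71).

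**Figure D3:**
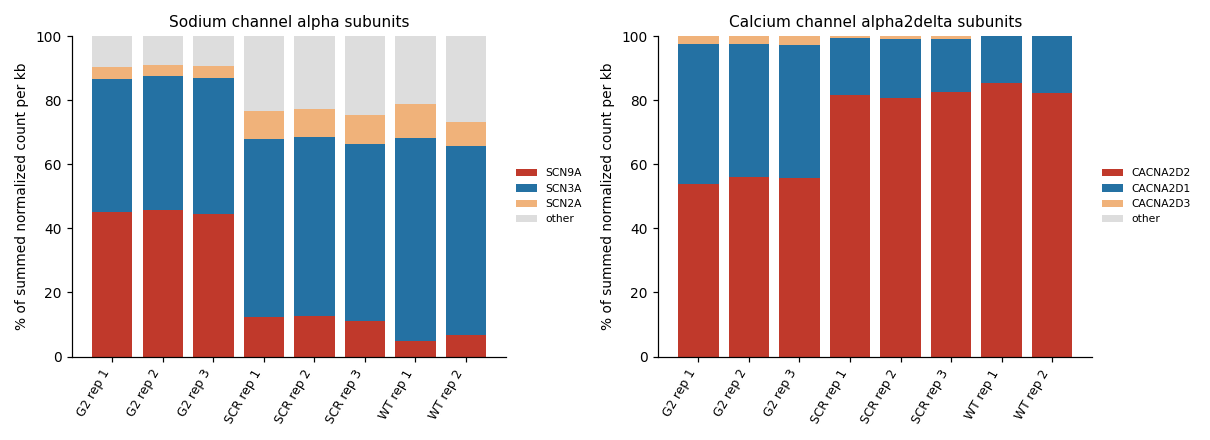
Share of the summed normalized count per kilobase of exon in each of the 8 libraries for sodium channel alpha subunits (left) and calcium channel alpha2delta subunits (right), with bars adding to 100%. SCN9A takes 44.6 to 45.7% in the G2 libraries and at most 12.7% in the controls, and CACNA2D1 takes 41.3 to 43.5% in G2 and at most 18.2% in the controls.

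The gamma subunit genes were lower or not called in G2, with 4 of 6 tested genes lower and 0 higher in each G2 comparison, and median differences of -0.93 against SCR and -1.80 against WT. Most of this family is better known as partners of AMPA-type glutamate receptors than of calcium channels. CACNG4 was the calcium channel gene with the highest level per kilobase in every line. It had 18253, 18874 and 18956 normalized counts in G2, 39003, 36857 and 37975 in SCR, and 59512 and 57815 in WT, with no overlap between lines. It was lower in G2 by 1.02 than in SCR (SE 0.05, adjusted p = 4.3e-09) and by 1.65 than in WT (SE 0.05, adjusted p = 2.0e-10). It was also lower in SCR than in WT by 0.63, a call that was lost at -0.35 when libraries were scaled to the same total.

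CACNG2, which encodes stargazin, had 140.2, 157 and 257 normalized counts in G2, 1002, 944 and 864 in SCR, and 757 and 770.4 in WT. All G2 libraries were far below the controls, by 2.39 and 2.10, although 2046 exon bases of the gene are shared with an unnamed gene on the same strand. CACNG5 had 39.5, 17.5 and 55.9 in G2, 113, 139.8 and 106 in SCR, and 144 and 123 in WT, with differences of -1.78 and -1.94. CACNG1, the gamma subunit of the skeletal muscle channel, had 53.6, 56.9 and 58.0 in G2, 69.4, 165 and 92.2 in SCR, and 246 and 197 in WT. It was lower in G2 than in WT by 1.95 and in SCR than in WT by 1.10, whereas the G2/SCR difference of -0.85 became -0.50 and lost its call without SCR replicate 2.

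CACNG5, CACNG4 and CACNG1 are neighbours on chromosome 17, from 66835117 to 67056797 on hg38, and all 3 were called lower against SCR as well as against WT. CACNG1 was far below its neighbour, at 0.178 to 0.448% of the CACNG4 normalized count over the 8 libraries, without regard to length. In the other gamma cluster, CACNG7, CACNG8 and CACNG6 on chromosome 19, 2 genes were tested and 0 were called in the G2 comparisons. CACNG7 had 4841 to 6023 normalized counts in G2, 6816 to 7936 in SCR, and 7675 and 7355 in WT, so G2 lay below the controls by 0.44 and 0.47 without passing the fold threshold.

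**Figure D4:**
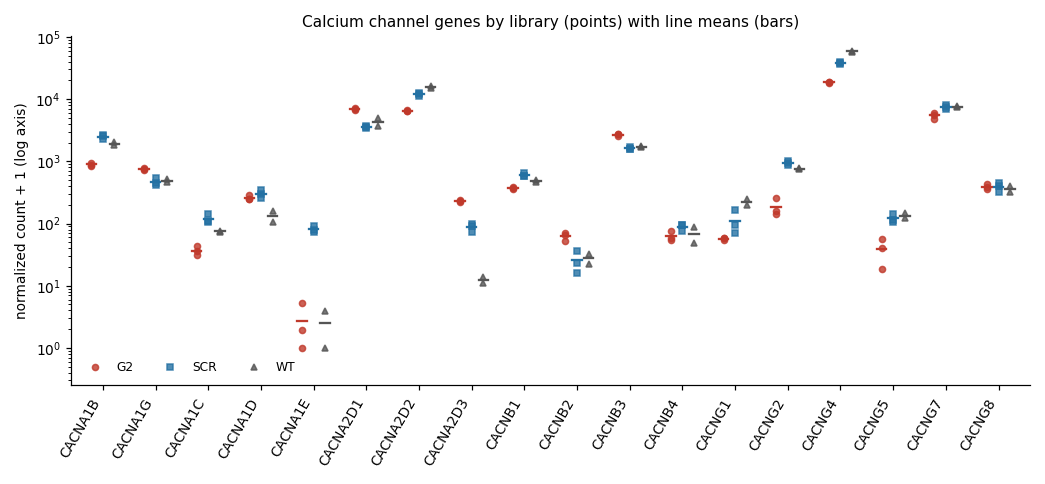
Normalized counts plus 1 on a log axis for the 18 tested calcium channel genes, with points for libraries and bars for line means. In these counts, which are not scaled to length, CACNA2D1 lies above CACNA2D2 in G2 only. CACNA1E is above the floor in SCR only, and CACNG1, CACNG2, CACNG4 and CACNG5 are lowest in G2.

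The potassium channel genes were mostly lower among those called, with 8 higher and 25 lower of 57 tested in G2/SCR, and 12 higher and 19 lower in G2/WT. In SCR/WT 12 were higher and 4 lower. Their median differences were -0.47, -0.41 and 0.04 in these comparisons. Of the voltage-gated pores of the Kv1 to Kv4 families, which repolarize the cell after an action potential, 4 of 6 tested were lower in G2/SCR and 0 higher. In G2/WT, 3 were lower and 1 higher. KCNC1, a fast delayed rectifier that permits rapid firing, had 63.0, 70.1 and 63.4 normalized counts in G2, 193, 169 and 199 in SCR, and 202 and 245 in WT. Its G2 libraries lay below all controls, by 1.5 (SE 0.15, adjusted p = 4.7e-06) and 1.75 (SE 0.17, adjusted p = 3.3e-06). KCNA3, best known from lymphocytes, was lower by 1.01 and 0.78.

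Of the silent subunits, which form channels only with other Kv pores, KCNG3 had 39.5, 28.5 and 39.8 in G2 against 135 to 166 in SCR and 139 and 157 in WT. It was lower by 2.02 and 2.03.

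Of the 5 KCNQ pores, a family that includes the subunits of the M channel, a slow potassium current that restrains repeated firing, 3 were lower in G2/SCR and 2 in G2/WT, with 0 higher in either. KCNQ3 had 45.2, 65.7 and 41.9 normalized counts in G2, 209, 239 and 209 in SCR, and 212 and 220.4 in WT. Every G2 library was below all controls, by 2.11 (SE 0.18, adjusted p = 1.3e-06) and 2.09 (SE 0.20, adjusted p = 3.9e-06). KCNQ5 was called lower against SCR only (-0.97), though it also passed against WT without G2 replicate 3 (-0.74). KCNQ1 missed the fold threshold in both (-0.47 and -0.41).

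The ether-a-go-go family had 1 higher and 3 lower of 7 tested in G2/SCR, and 1 higher and 4 lower in G2/WT. KCNH2, which carries the rapid delayed rectifier of the heart and is often expressed in tumour cells, was the exception. It had 14801, 16408 and 16398 normalized counts in G2, 9014, 8305 and 8420 in SCR, and 10251 and 9239 in WT. All G2 libraries were above the controls, by 0.89 (SE 0.06, adjusted p = 2.2e-07) and 0.70 (SE 0.07, adjusted p = 4.7e-06). Per kilobase of exon it made up 41.0% of all potassium pores in G2, 22.4% in SCR and 23.1% in WT. Its relatives KCNH6 and KCNH4 were lower: KCNH6 had 128, 119 and 128 in G2, 377, 344 and 382 in SCR, and 303 and 292 in WT, with differences of -1.55 and -1.24. KCNH4 was lower by 1.96 and 1.77.

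Inward rectifiers pass current mainly into the cell and hold the resting potential. Of 10 tested, 1 was higher and 3 lower in G2/SCR, and 2 were higher and 2 lower in G2/WT. This is 40% called in each, beside 26.9% and 29.9% of all tested genes. KCNJ2 had the largest rise of the members named by rule in both G2 comparisons, with 429, 395 and 432 normalized counts in G2, 20.4, 27.2 and 26.5 in SCR, and 8.69 and 29.8 in WT. G2 was far above every control library, by 4.04 (SE 0.35, adjusted p = 1.2e-06) and 4.60 (SE 0.39, adjusted p = 1.1e-06), with 3.77 to 5.44 in G2/WT as either WT replicate was left out. Its antisense neighbour KCNJ2-AS1 had 40.0, 21.5 and 18.6 on average in G2, SCR and WT. KCNJ8, the pore of an ATP-sensitive channel, moved the other way, with 1082, 1269 and 1516 in G2, 3276, 3347 and 3156 in SCR, and 4107 and 3513 in WT. It was lower by 1.35 (adjusted p = 5.7e-07) and 1.57 (adjusted p = 4.5e-07), and made up 9.52% of the potassium pore level per kilobase of exon in G2, 24.4% in SCR and 25.9% in WT.

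KCNH2 led the potassium pores in G2 by either measure of length. Which of KCNH2 and KCNJ8 led in the control lines depended on that measure: per kilobase of merged exon KCNJ8 was higher in SCR (1298 against 1190) and WT (1517 against 1352), and per kilobase of MANE transcript KCNH2 was (1999 against 1433, and 2271 against 1675). Per kilobase of MANE transcript KCNK1 also stood above KCNJ8 in the control lines, at 1966 in SCR and 2182 in WT. KCNJ14 was left out of these levels because it shares an entry of the table with GRWD1. KCNJ12 and KCNJ18 are near-identical copies whose reads may be split between them, and KCNJ18 was at the floor in all lines. KCNJ12, singled out after its values were seen, was listed at 0 in all 3 G2 libraries, at 33.7, 26.3 and 30.2 in SCR, and at 8.69 and 9.93 in WT.

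The 2-pore-domain channels carry the background leak of potassium, and 3 were higher and 5 lower of 10 tested in G2/SCR, with 2 higher and 4 lower in G2/WT. The acid-sensitive members KCNK3 and KCNK9 were both lower. KCNK9 had 15.1, 8.76 and 5.37 normalized counts in G2, 107 to 118 in SCR, and 123 and 111 in WT, with differences of -3.53 (SE 0.32, adjusted p = 2.0e-06) and -3.56 (SE 0.36, adjusted p = 5.0e-06). KCNK3 had 258, 325 and 329.9 in G2, 721, 590.3 and 602 in SCR, and 751 and 716 in WT, lower by 1.07 and 1.28. In both genes no G2 library reached a control.

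KCNK15, which belongs to the same branch, had 11.3, 16.4 and 0 normalized counts in G2, 116, 106 and 163 in SCR, and 78.2 and 67.5 in WT. Its difference from SCR was -4.41 with all libraries, -3.12 without G2 replicate 3 (the library at 0) and -5.18 without G2 replicate 2, and from WT it was -3.62, -2.33 and -4.39. KCNK15 shares 506 exon bases with RIMS4 on the opposite strand, and RIMS4 was also lower in G2, with 885, 3570 and 3375 on average in G2, SCR and WT. Whether reads of RIMS4 were counted for KCNK15 was not tested. KCNK6 was higher, with 148, 140.2 and 119 in G2, 82.7, 34.7 and 77.1 in SCR, and 55.9 and 62.5 in WT (1.15 and 1.18). KCNK4, a mechanically gated leak channel whose exons lie within a readthrough gene, had 36.7, 99.6 and 109 in G2, 16.3, 17.8 and 26.5 in SCR, and 64.6 and 40.7 in WT. It was higher in G2 than in SCR by 1.85. It was lower in SCR than in WT by 1.33, a call lost without WT replicate 1 (-1.01), and G2 overlapped WT (0.51, and 1.01 and called without G2 replicate 1).

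Of the channels opened by calcium or sodium inside the cell, 4 of 7 tested were lower and 0 higher in G2/SCR, and 2 were lower and 1 higher in G2/WT. KCNN1, a small-conductance channel that hyperpolarizes the cell after firing, had 169, 151 and 190.2 normalized counts in G2, 528, 491 and 508 in SCR, and 294 and 289.9 in WT. It was lower in G2 by 1.58 and 0.78 and higher in SCR than in WT by 0.80, so the lines stood in the order SCR, WT, G2 with no overlap. KCNT1, a sodium-activated channel, had 248, 237 and 259 in G2, 564, 558 and 608 in SCR, and 669 and 636 in WT, lower by 1.22 and 1.39.

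Among the 7 tested partners of the Kv pores, 2 were higher and 2 lower in G2/SCR, and 2 were higher and 1 lower in G2/WT. KCNAB1, a cytoplasmic beta subunit that speeds inactivation, had 182, 231 and 214 normalized counts in G2, 22.5, 15.0 and 31.0 in SCR, and 94.4 and 73.5 in WT. No lines overlapped, in the order G2, WT, SCR. It was higher in G2 by 3.19 (SE 0.26, adjusted p = 7.5e-07) and 1.31 (SE 0.29, adjusted p = 0.0023), and lower in SCR than in WT by 1.88. KCNIP4, a calcium-binding partner of the Kv4 pores that was singled out after its values were seen, was listed at 0 in all 5 control libraries and had 34.8, 33.9 and 55.9 in G2. Against the floors of the control lines, G2 was at least 5.10-fold higher than SCR and at least 4.13-fold higher than WT, although its exons overlap PACRGL on the opposite strand.

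**Figure D5:**
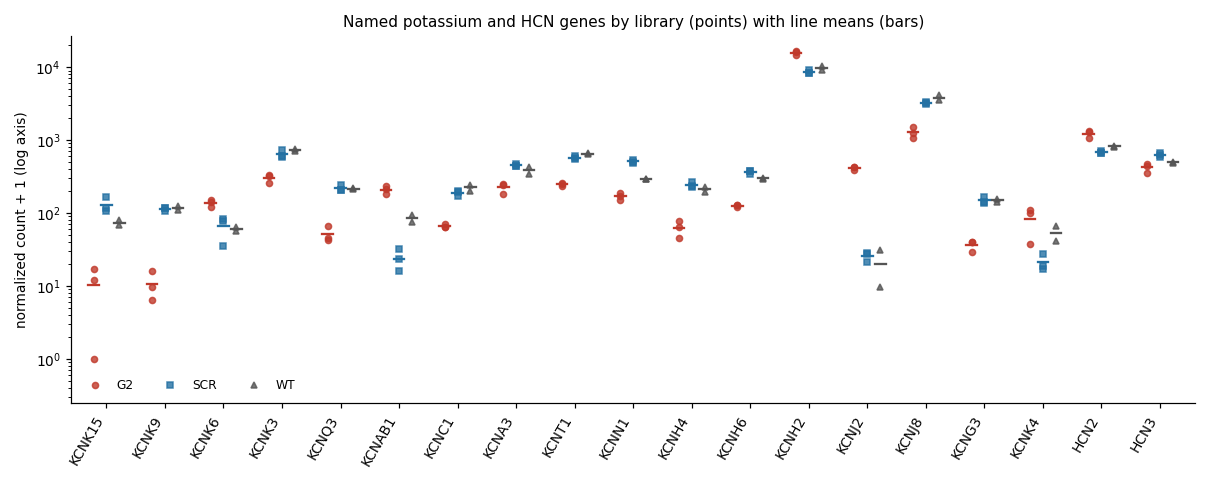
Normalized counts plus 1 on a log axis for potassium channel genes named by rule and for HCN2 and HCN3, with points for libraries and bars for line means. KCNJ2 lies between 395 and 432 in G2 and at most at 29.8 in the controls, whereas KCNK9 lies at or below 15.1 in G2 and at or above 107 in the controls.

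The HCN channels open on hyperpolarization and carry the pacemaker current. HCN2 had 1070, 1295 and 1315 normalized counts in G2, 656, 669 and 718 in SCR, and 796 and 841 in WT. All G2 libraries were above the controls, with a called difference of 0.84 from SCR and one of 0.58 from WT that lay just under the fold threshold and passed it without G2 replicate 1 (0.67) or WT replicate 2 (0.62), and with TMM (0.59) or same-total (0.76) scaling. HCN3 had 357, 476 and 437 in G2, 622, 583 and 674 in SCR, and 502 and 489 in WT. It lay below the controls in G2 with differences of -0.57 and -0.24, and was called in neither, although the former passed without G2 replicate 2 (-0.66), G2 replicate 3 (-0.60) or SCR replicate 2 (-0.62), and with same-total scaling (-0.66). HCN4, singled out after its values were seen, had 28 to 43.9 in SCR and at most 9.93 in any library of G2 or WT.

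Genes that work with these channels but carry other family names were counted in the same fit, where 26.9% of all genes passed against SCR and 29.9% against WT. Of 28 such partners 23 were tested, and 7 were higher and 6 lower in G2/SCR (median 0.02), with 9 higher and 6 lower in G2/WT (median 0.14). Partners of potassium channels went both ways. CNTNAP2, which gathers Kv1 channels beside the node of Ranvier, had 1179, 1069 and 1064 normalized counts in G2, 277, 269 and 249 in SCR, and 176 and 268 in WT (2.05 and 2.34). DPP10, an auxiliary subunit of Kv4 channels, had 232, 235 and 189 in G2, 1422, 1406 and 1313 in SCR, and 1090 and 1130 in WT (-2.66 and -2.34), and its relative DPP6 was also lower (-1.29 and -0.90). NALCN, the sodium leak channel, was higher (2.24 and 3.34), while UNC80, a protein of the same channel complex, was lower (-1.45 and -1.47). NALCN had 94.1, 62.4 and 66.6 normalized counts in G2, 30.6, 12.2 and 8.31 in SCR, and 4.97 and 7.94 in WT. WT was at the floor, so the size of its difference from WT is uncertain.

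The sodium-potassium pump restores the gradients that the channels use, and 8 of its 13 listed subunit and FXYD genes were tested. In G2/SCR 4 were higher and 2 lower, and in G2/WT 3 were higher and 3 lower. ATP1B2, a beta subunit that helps the pump reach the membrane, had 1787, 2034 and 1944 normalized counts in G2, 479, 479.6 and 413 in SCR, and 485 and 434 in WT. All G2 libraries were above the controls, by 2.07 (adjusted p = 3.4e-09) and 2.06 (adjusted p = 1.0e-08).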

How the data were processed

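RNA-seq of polyadenylated RNA (stranded kit, paired reads) was performed on 3 G2, 3 SCR and 2 WT libraries. Per the paper's methods and the submitters' processing notes, the authors mapped reads to hg38 with STAR 2.7.5a, counted them on FAST DB genes with featureCounts (Subread 1.5.0) and normalized them with DESeq2. The deposited signal is this normalized count per gene and library, without length scaling or pooling. The strand setting of the counting was not given in the sources used here.

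Each library's values were multiples of a step, and dividing by it gave recovered totals of 59804395 to 81080747. The step of WT replicate 2 was too near 1 to check, so edgeR 4.0.16 and DESeq2 1.42.0 were run on recovered counts for G2/SCR only. Most small counts (71.3 to 75.6% per library) could be divided by 3, and the reason is not known. A line was therefore taken as at the floor when no library exceeded 9 recovered counts, and lower bounds use 9 counts in each library. Floors cover counting error only.

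Differences were fitted with limma 3.58.1 (R 4.3.3) on log2(value + 1) with a mean per line over all 8 libraries and eBayes with a trend, for genes with a mean of at least 10. Adjusted p-values are Benjamini-Hochberg values over all tested genes, and the scripts were tested on simulated data. Lengths and overlaps were taken from GENCODE 44 on hg38. The members and the lists of partners, pumps and markers were chosen with earlier results of these data known. The text names, in each subgroup, up to 5 members with a mean of at least 50 that were called in the same direction in both G2 comparisons, the 2 highest per kilobase of exon in WT for each ion, and up to 3 with the largest called SCR/WT difference. Other members were singled out after their values were seen, and some members are not reported here. Alternatives were other scalings, pseudocounts of 0.5 and 10, other filters and thresholds, no trend, fewer libraries, a replicate block and count tests.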

Additional observations from a re-analysis of the deposited data

How the results depend on the processing

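The number of called members was 55 in G2/SCR, 50 in G2/WT and 28 in SCR/WT. Leaving out each library in turn gave 52 to 57, 48 to 53 and 21 to 30. A mean of at least 100 in place of 10 left fewer genes to call, with 33, 32 and 14, and a fold of at least 2 left 18 in SCR/WT. For G2/SCR, edgeR called 56 and DESeq2 55. Scaling every library to the same total gave 59, 54 and 36 and moved the median of all genes to -0.10, 0.19 and 0.28, and the cause was not tested. Deviations from the line means of same-numbered replicates had correlations of -0.17 to 0.15. Centring each line on its own mean constrains these values, so they cannot settle whether the numbers pair the samples. A fit with the replicate number as a block called 55, 51 and 23. Of 3135 alternative values for 54 members, 3037 stayed on their side of the threshold, 55 lost a call, 43 gained one and 0 reversed a called direction. Precision is limited by 2 WT libraries, a single edited clone, and genes near the floor, and differences below it were not detectable at this depth.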
